A study of Mus musculus with 6 samples.

Results

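The 10 genes described here restrain inflammatory signalling and were followed in Raw264.7 macrophages with and without knockdown of *Etv5*, which encodes a transcription factor of the ETS family. They were found by their gene symbols, and 10 of the 24786 symbols in the expression table belong to them. They are the cytokine-signalling suppressors *Socs1*, *Socs3* and *Cish*, the mRNA-destabilising proteins *Zfp36*, *Zfp36l1* and *Zc3h12a*, the Toll-like receptor (TLR) and NF-κB inhibitors *Irak3*, *Tnip1* and *Tnip3*, and the anti-inflammatory cytokine *Il10*. Messenger RNA was sequenced in 3 libraries of cells carrying a control shRNA (sh-NC) and in 3 libraries of cells carrying an shRNA against *Etv5* (sh-*Etv5*). Both groups are the same line, which the labels place in the C57BL/6 strain at postnatal day 21 and trace to a tumor induced by Abelson murine leukemia virus. The paper gives that strain for its mice and names no strain for the purchased Raw264.7 line. Both groups received lentivirus, and the labels state for both a readout at 24 or 48 h of infection, with a Lipofectamine reagent used alongside. The paper describes the sequenced cells as stably transfected, and its methods keep lentivirus-infected Raw264.7 cells under puromycin. The time from infection to harvest is therefore not clear. No inflammatory stimulus is named for either group. The sources used here do not say which of 3 shRNAs was sequenced or if each library is an infection of its own, so n is the number of libraries and the p-values measure the spread between these libraries, which may be technical.

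Inflammatory signals in macrophages run through a few relays that are each held in check by induced proteins. Cytokine receptors activate JAK kinases and STAT transcription factors, and SOCS proteins bind the receptors or kinases and shut them off. TLRs signal through Myd88 and the IRAK kinases to NF-κB, where IRAK-M (the product of *Irak3*) stalls the kinase complex and the ABIN proteins (products of the *Tnip* genes) bind ubiquitin chains and work with A20. Many cytokine mRNAs are short-lived because tristetraprolin (*Zfp36*) binds AU-rich elements and Regnase-1 (*Zc3h12a*) cuts stem-loops in their 3′ untranslated regions. IL-10 acts back on macrophages through its own receptor and STAT3.

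Values are RPKM (read density over gene length and mapped reads) as the authors deposited them, and the number of reads behind them is unknown. A log2 fold change is the difference of the group means of log2(RPKM + 1), sh-*Etv5* minus sh-NC, so it understates the change of low genes. It was tested with limma across the 10738 genes that reached an RPKM of 1 in at least 3 libraries, and an adjusted p-value under 0.05 was called. *Etv5* itself was 9.18, 9.89 and 9.39 RPKM in sh-NC and 5.19, 4.91 and 5.28 RPKM in sh-*Etv5*, and fell by 0.78 on the log2 scale (SE 0.0565, limma adjusted p = 2.74e-07). The groups did not overlap, and 0.540 of the control level was left. Of 10 macrophage markers, 9 stood at 1 RPKM or more in every library and *Mrc1* stayed below 1. Of these 9, 4 were called higher (*Itgam* 3.77-fold, *Adgre1* 4.35-fold, *Cd14* and *Spi1*), 4 lower (*Csf1r*, *Lyz2*, *Cd68* and *Fcgr1*) and *Ptprc* was not called. The summed level of the 10 was 4490 to 4616 RPKM in sh-NC and 3587 to 3704 RPKM in sh-*Etv5*, of which *Lyz2* alone held 2834 and 2041 RPKM on average. Markers of B cells, mast cells, fibroblasts and epithelial cells were below 1 RPKM throughout, the T cell list passed 1 RPKM only with *Lck*, and the neutrophil list summed to 0.123 to 0.491 RPKM in sh-NC and 15.6 to 19.7 RPKM in sh-*Etv5*. *S100a8* was the only one of its 5 genes above 1 RPKM, while *S100a9*, *Ly6g* and *Elane* were listed at 0 in every library. The part of the marker shifts in the results was not tested. In bulk RNA a smaller share of cells and less RNA per cell cannot be told apart.

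Most of these brakes were higher in sh-*Etv5*. *Socs3* rose 40.8-fold, *Irak3* 14.9-fold, *Zc3h12a* 5.98-fold, *Zfp36* 5.63-fold and *Tnip1* 2.29-fold, *Il10* went from near 0 to about 4 RPKM, and *Tnip3* rose by 14.4%. *Zfp36l1* fell to 0.562 of its control level, *Socs1* was not called in either direction, and *Cish* was too low to be tested. That makes 7 genes called higher, 1 called lower, 1 not called and 1 not tested. Over all genes tested 33.3% were called higher and 41.0% lower. Of the 10 genes, 6 rose by more than 1 on the log2 scale, as did 6.23% of all genes tested. The groups did not overlap in 8 of the 9 tested genes, which is to be read against 76.4% of all genes tested. *Il10* passed the filter through its sh-*Etv5* libraries alone and therefore had to differ. Of the other 8 tested genes, 6 were called higher, 1 was called lower, and 5 rose by more than 1 on the log2 scale.

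**Figure D1:**
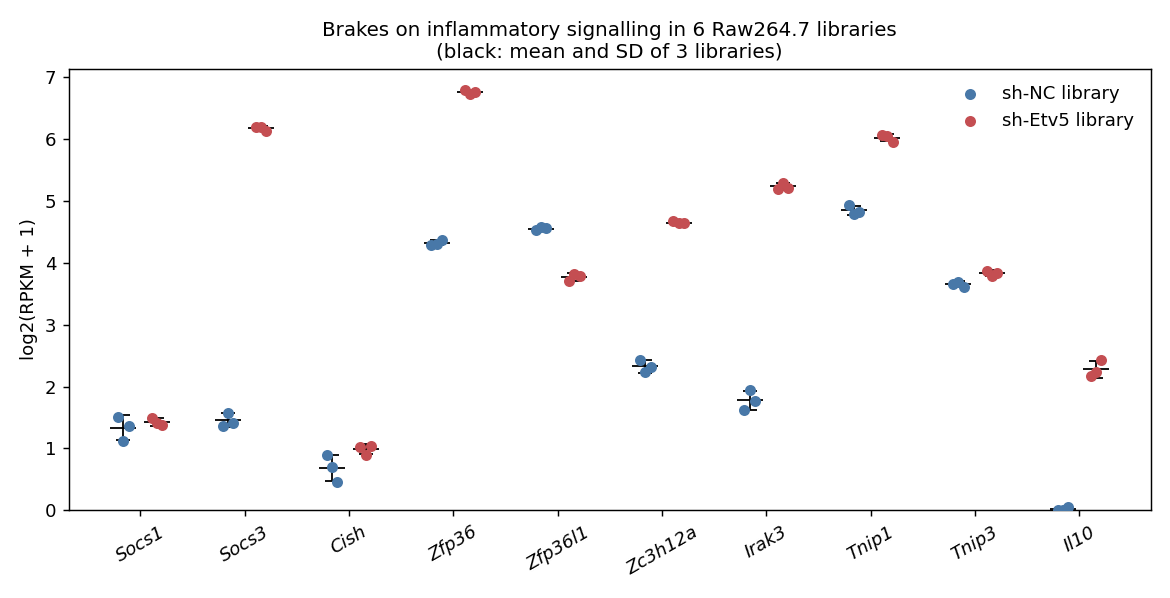
Each point is log2(RPKM + 1) of a gene in 1 library, with sh-NC in blue and sh-*Etv5* in red (3 libraries each), and the black bars are the mean and SD. *Socs3*, *Irak3*, *Zc3h12a*, *Zfp36*, *Tnip1* and *Il10* stand well above their controls, *Zfp36l1* stands below, and the *Socs1* groups overlap.

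*Socs3* had the highest log2 fold change of the 10 genes at the pseudocount used here. Its product blocks signalling from gp130 receptors such as the IL-6 receptor. At a pseudocount of 0.1 *Socs3* stayed above *Il10* (5.28 against 5.15), but at 0.01 *Il10* was higher (7.84 against 5.35). The level of *Socs3* was 1.57, 1.99 and 1.67 RPKM in sh-NC and 72.2, 72.1 and 68.8 RPKM in sh-*Etv5*. Every sh-*Etv5* library was far above every control, and the spread within each group was small (1.74 ± 0.217 against 71.0 ± 1.97, mean ± SD, n = 3). The log2 fold change was 4.72 (SE 0.0604, limma adjusted p = 2.14e-13), the 17th highest of the 10738 genes tested. *Socs3* lies on the minus strand of chromosome 11 (chr11:117966079-117970047, GRCm38).

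*Socs1*, which inhibits JAK kinases directly and is best known as a brake on interferon signalling, was 1.86, 1.16 and 1.58 RPKM in sh-NC and 1.82, 1.65 and 1.60 RPKM in sh-*Etv5*. The groups overlapped, with both the highest and the lowest of the 6 values in sh-NC. The log2 fold change of 0.09 had a 95% interval of -0.14 to 0.32 (limma adjusted p = 0.428), so a change of the size seen in *Socs3* lies outside that interval, and the sign turned when libraries were quantile-normalized (-0.043) or when the second sh-NC library was left out (-0.016). *Cish*, a STAT5-induced brake on cytokine receptors, was 0.850, 0.624 and 0.376 RPKM in sh-NC and 1.04, 0.856 and 1.06 RPKM in sh-*Etv5*. Its groups were separated only by the gap from 0.850 to 0.856, and without a filter on low values its log2 fold change was 0.31 (limma adjusted p = 0.162). Over the alternatives the log2 fold change of *Cish* ran from 0.18 to 0.74, with 0.65 and 0.74 at pseudocounts of 0.1 and 0.01, and the limma adjusted p from 0.0671 to 0.447.

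Within a library, log2 of (*Socs1* + 1) over (*Socs3* + 1) was -0.46 to 0.15 in sh-NC and -4.79 to -4.70 in sh-*Etv5*, and that of *Cish* over *Socs3* went from -0.96 to -0.47 down to -5.30 to -5.08. On the RPKM scale the sh-NC means of *Socs1*, *Socs3* and *Cish* were 1.54, 1.74 and 0.617, and those in sh-*Etv5* were 1.69, 71.0 and 0.985. These are 2 of 15 ratios between a member and a paralogue or partner that were compared. In all 15 the groups did not overlap at a pseudocount of 1, and in 14 at pseudocounts of 0.1 and 0.01. The exact two-sided permutation test gave p = 0.1 for all 15 at a pseudocount of 1, raw and adjusted over the ratios. That is the smallest value that 3 against 3 libraries allow. Among single genes tested 76.4% did not overlap, and the share for ratios of other gene pairs was not computed. As the pairs hold members that themselves changed, the count of separate ratios is a description only. In the summed RPKM of the 8 SOCS genes, which went from 30.3 ± 0.997 to 101 ± 1.93 (SD, n = 3), *Socs3* made up 5.76% ± 0.879 in sh-NC and 70.2% ± 0.687 in sh-*Etv5*. *Socs1* made up 5.04% and 1.67% of the sum, while *Socs4*, *Socs6* and *Socs7* held 31.9%, 23.0% and 16.3% of it in sh-NC.

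**Figure D2:**
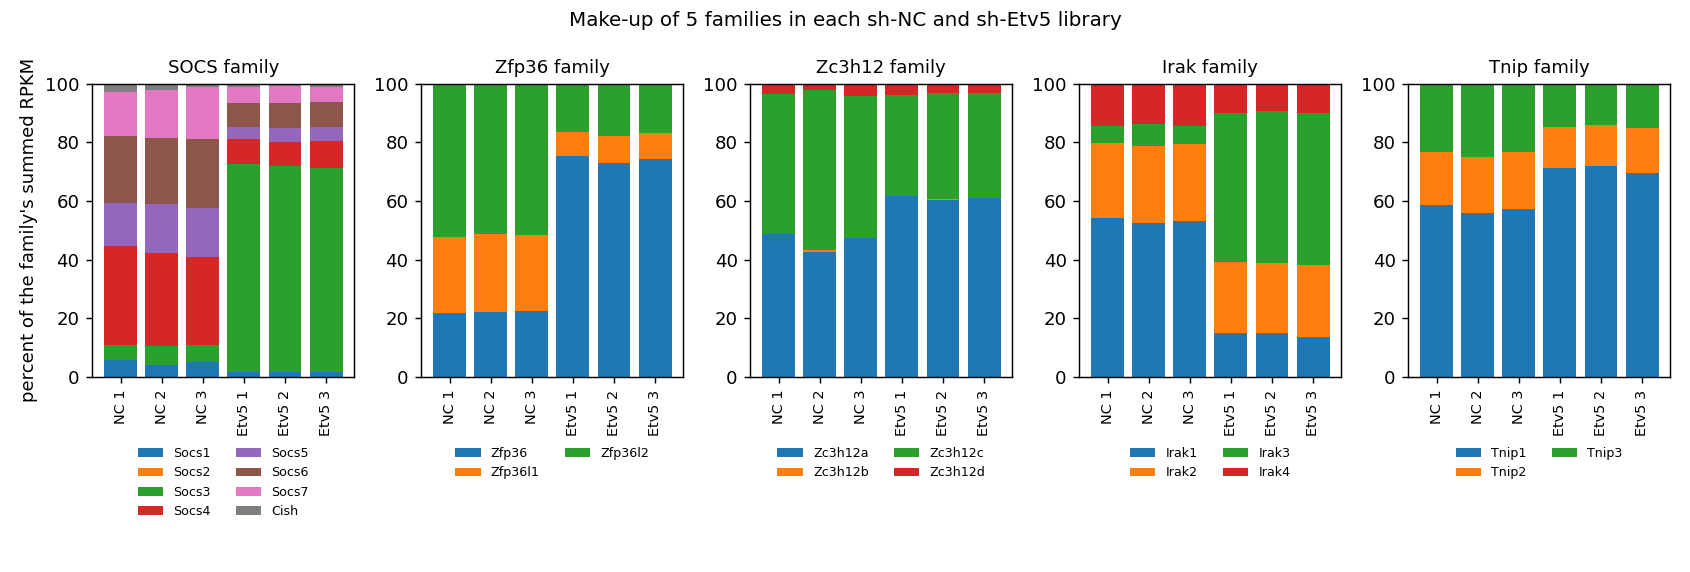
Bars give the percent of a family's summed RPKM that each gene contributes, in each of the 3 sh-NC (NC) and 3 sh-*Etv5* (Etv5) libraries. *Socs3*, *Zfp36* and *Irak3* each take more than 50% of their family in every sh-*Etv5* library and less than 25% in every sh-NC library.

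None of 14 other tested brakes on cytokine receptors and the JAK-STAT relay changed by more than 1 on the log2 scale. Of these 14, 4 were higher, 5 lower and 5 not called, with a median log2 fold change of -0.11 beside -0.05 for all genes tested. Shares over all genes tested were 33.3% higher, 41.0% lower and 6.23% up by more than 1. That none of 14 rose by more than 1 therefore does not set these brakes apart. The furthest from 0 were *Sh2b3*, an adaptor that restrains JAK2 (-0.42), the SUMO ligase *Pias4* (0.37) and the phosphatase *Ptpn2* (-0.36). Among 21 kinases, STATs and receptors of the relay, 8 were higher and 10 lower, with a median of -0.01, to be read against the same shares. *Il6st*, which encodes the gp130 subunit that SOCS3 binds, was 15.7, 16.7 and 17.3 RPKM in sh-NC and 5.70, 7.14 and 6.11 RPKM in sh-*Etv5*. It fell by 1.27 on the log2 scale (limma adjusted p = 3.82e-08) while *Socs3* rose, and the log2 ratio of *Socs3* to *Il6st* went from -2.68 ± 0.106 to 3.30 ± 0.141 (SD, n = 3). *Il4ra* (0.88) and *Stat3* (0.87) were the highest of the relay, but *Il4ra* was below 1 RPKM in every sh-NC library and so had to be higher once tested.

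*Zfp36*, whose product tristetraprolin recruits deadenylases to AU-rich mRNAs, was 18.5, 18.8 and 19.7 RPKM in sh-NC and 109.7, 104.8 and 106.2 RPKM in sh-*Etv5*. No library overlapped with the other group, and the log2 fold change was 2.43 (SE 0.0382, limma adjusted p = 1.10e-12). The gene is on the minus strand of chromosome 7 (chr7:28376784-28380253, GRCm38). Its paralogue *Zfp36l1*, which binds the same elements, was 22.0, 22.7 and 22.5 RPKM in sh-NC and 12.0, 13.1 and 12.7 RPKM in sh-*Etv5*. All 3 sh-*Etv5* libraries were below all controls, and *Zfp36l1* fell by 0.78 on the log2 scale (SE 0.0469, limma adjusted p = 5.34e-08).

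The paralogues therefore changed places. In sh-NC *Zfp36l1* was slightly above *Zfp36* in each library (log2 ratio 0.19 to 0.26), and in sh-*Etv5* it was below it in each library (-3.10 to -2.91). The third paralogue, *Zfp36l2*, fell by 0.83 on the log2 scale (limma adjusted p = 9.92e-09), and its log2 ratio to *Zfp36* went from 1.18 to -2.08. On the RPKM scale the 3 genes summed to 85.8 ± 1.36 in sh-NC and 144 ± 1.59 in sh-*Etv5* (SD, n = 3). *Zfp36* supplied 22.1% of that sum in sh-NC and 74.2% in sh-*Etv5*, and the share of *Zfp36l1* went from 26.1% to 8.75%. An annotated long noncoding RNA on the opposite strand, *Gm26669*, covers 55.9% of the exon bases of *Zfp36l1* in GENCODE. As no strand setting is given in the sources used here, reads of the pair cannot be told apart, and *Gm26669* was not analysed here. The corresponding share was 3.60% for *Zfp36* (with *Gm44710*). Of the 50-base stretches of *Zfp36l1* 3.12% also occur in its pseudogene *Zfp36l1-ps*, and reads from those could be counted for either.

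*Zc3h12a*, which encodes the endoribonuclease Regnase-1, was 4.39, 3.69 and 3.98 RPKM in sh-NC and 24.5, 23.8 and 23.8 RPKM in sh-*Etv5*. The groups were far apart and each was tight, with a log2 fold change of 2.32 (SE 0.0592, limma adjusted p = 6.45e-11). It lies on the minus strand of chromosome 4 (chr4:125118423-125127840, GRCm38). Its relatives *Zc3h12c* and *Zc3h12d* rose as well, by 1.48 and 0.87 on the log2 scale. *Zc3h12a* made up 46.2% ± 3.08 of the family's summed RPKM in sh-NC and 61.1% ± 0.652 in sh-*Etv5* (SD, n = 3). *N4bp1*, paired with *Zc3h12a* for comparison, was not called (log2 fold change 0.02, limma adjusted p = 0.801), and the log2 ratio of *Zc3h12a* to it went from -1.02 to 1.28.

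The 3 mRNA-destabilising members were set beside 20 further destabilising factors, which include roquins, deadenylases and decapping enzymes. Of the 20, 2 were higher, 12 lower and 6 not called, with a median log2 fold change of -0.32. All genes tested gave 33.3% higher and 41.0% lower, at a median of -0.05. The 2 that rose were *Zc3h12c* and *Zc3h12d*. *Zc3h12d* was below 1 RPKM in every sh-NC library and was tested through its sh-*Etv5* libraries alone, so it had to be higher. Among 8 tested mRNA stabilisers and regulators of tristetraprolin, 3 rose and 5 fell, with a median of -0.27, beside the same shares of all genes tested. Those that rose were *Dusp1*, a phosphatase that ends p38 signalling (1.99), *Arid5a*, which protects *Il6* mRNA from Regnase-1 (1.11), and the p38 kinase *Mapk11* (0.88). *Elavl1* (HuR), which stabilises AU-rich mRNAs, was 0.835 of its control level, and the log2 ratio of *Zfp36* to *Elavl1* went from -0.21 to 2.47.

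Most tested mRNAs that these proteins are known to destabilise were higher together with them. Of 25 listed targets, *Il1a*, *Cxcl1*, *Il12b*, *Il23a* and *Lif* were under the filter and not tested. Of 20 tested textbook targets of tristetraprolin or Regnase-1, 6 (*Il6*, *Il1b*, *Csf2*, *Csf3*, *Myc* and *Lcn2*) were below 1 RPKM in every sh-NC library, so they passed the filter through sh-*Etv5* alone and had to be higher. Of the other 14, 13 were called higher, beside 33.3% of all genes tested, and *Tfrc* was not called. Among these 14, 11 rose by more than 1 on the log2 scale, beside 6.23% of all genes tested, and the median log2 fold change was 2.88. With the 6 included the median was 3.17. *Cxcl2* had the highest log2 fold change (8.14), followed by *Lcn2* (7.01) and *Csf3* (6.90), which are among the 6. *Zfp36* and its classical target *Tnf* moved by similar amounts, 5.63-fold and 6.53-fold, and their log2 ratio within a library went from -1.68 ± 0.0392 to -1.94 ± 0.0562 (SD, n = 3), so the target gained slightly on its regulator. *Il6*, a target of Regnase-1, was listed at 0 in the 3 sh-NC libraries and was 34.5, 37.5 and 40.4 RPKM in sh-*Etv5*. *Zc3h12a* was therefore above *Il6* in every control library and below it in every sh-*Etv5* library. The size of that ratio depends on the pseudocount because *Il6* starts at 0.

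Tristetraprolin binds the heptamer TATTTAT, and the members were read for it in the 3′ untranslated region of their principal GENCODE transcript. Only members with a RefSeq promoter entry were read, so *Il10* was left out and its heptamers are not known here. Of the 9 members read, 5 held at least 1, beside 26.1% of all 20706 coding genes and 20 of 24 textbook targets. *Zfp36*, *Zfp36l1* and *Cish* held 3 each, *Socs3* held 2 and *Tnip3* held 1, whereas *Socs1*, *Zc3h12a*, *Irak3* and *Tnip1* held none. The heptamer thus occurs in *Zfp36*, *Socs3* and *Tnip3*, which rose, in *Zfp36l1*, which fell, and in *Cish*, which was not tested. It is missing from *Irak3*, *Zc3h12a* and *Tnip1*, which rose, and from *Socs1*, which was not called. Its part in these changes was not tested. One or 2 sites of 4 members are shown (GRCm38, 27 bases each), with the heptamer in capitals, since they include the gene of tristetraprolin itself.
Zfp36, chr7:28376967-28376993, minus strand: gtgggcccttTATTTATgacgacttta
Zfp36, chr7:28376927-28376953, minus strand: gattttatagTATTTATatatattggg
Zfp36l1, chr12:80108423-80108449, minus strand: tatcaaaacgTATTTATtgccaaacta
Socs3, chr11:117966140-117966166, minus strand: tttgcacataTATTTATatttatactc
Tnip3, chr6:65632475-65632501, plus strand: tttatgcagcTATTTATcggaaagata

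*Irak3*, which encodes IRAK-M, a macrophage IRAK without an active kinase that keeps the Myd88 complex from signalling on, was 2.08, 2.83 and 2.42 RPKM in sh-NC and 35.5, 38.2 and 35.9 RPKM in sh-*Etv5*. The lowest sh-*Etv5* library was more than 10-fold above the highest control. The log2 fold change was 3.45 (SE 0.0744, limma adjusted p = 1.54e-11), the 38th highest of the genes tested. *Irak3* lies on the minus strand of chromosome 10 (chr10:120141648-120202130, GRCm38), and 5.22% of its exon bases (192 bases) overlap *Tmbim4* on the other strand. *Tmbim4*, named after its values were seen, was 27.7 to 30.3 RPKM in sh-NC and 55.5 to 58.8 RPKM in sh-*Etv5*, and its part in the *Irak3* values was not tested.

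The IRAK family changed its make-up in a manner similar to the Zfp36 family. *Irak1*, the kinase that IRAK-M holds back, was 20.3, 19.6 and 20.2 RPKM in sh-NC and 10.6, 11.1 and 9.36 RPKM in sh-*Etv5*, a fall by 0.89 on the log2 scale (limma adjusted p = 1.41e-07). *Irak3* was below *Irak1* in each control library (log2 ratio -2.79 to -2.43) and above it in each sh-*Etv5* library (1.65 to 1.83). *Irak2* rose by 0.76 on the log2 scale, and the log2 ratio of *Irak3* to it went from -1.65 to 1.04. In the family's summed RPKM, 37.6 ± 0.473 in sh-NC and 71.1 ± 2.26 in sh-*Etv5*, the share of *Irak3* went from 6.50% to 51.4% and that of *Irak1* from 53.3% to 14.6%. Of 15 tested genes of the Myd88-Irak-Traf6 relay, *Irak1* and *Irak2* included, 4 were higher, 9 lower and 2 not called, at a median log2 fold change of -0.21. None changed by more than 1 on the log2 scale. All genes tested gave 33.3% higher, 41.0% lower and 6.23% up by more than 1, at a median of -0.05. The absence of a rise by more than 1 is thus not particular to the relay. After *Irak1* and *Irak2*, *Tab1*, a subunit of the TAK1 kinase complex, was furthest from 0 (-0.56).

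**Figure D3:**
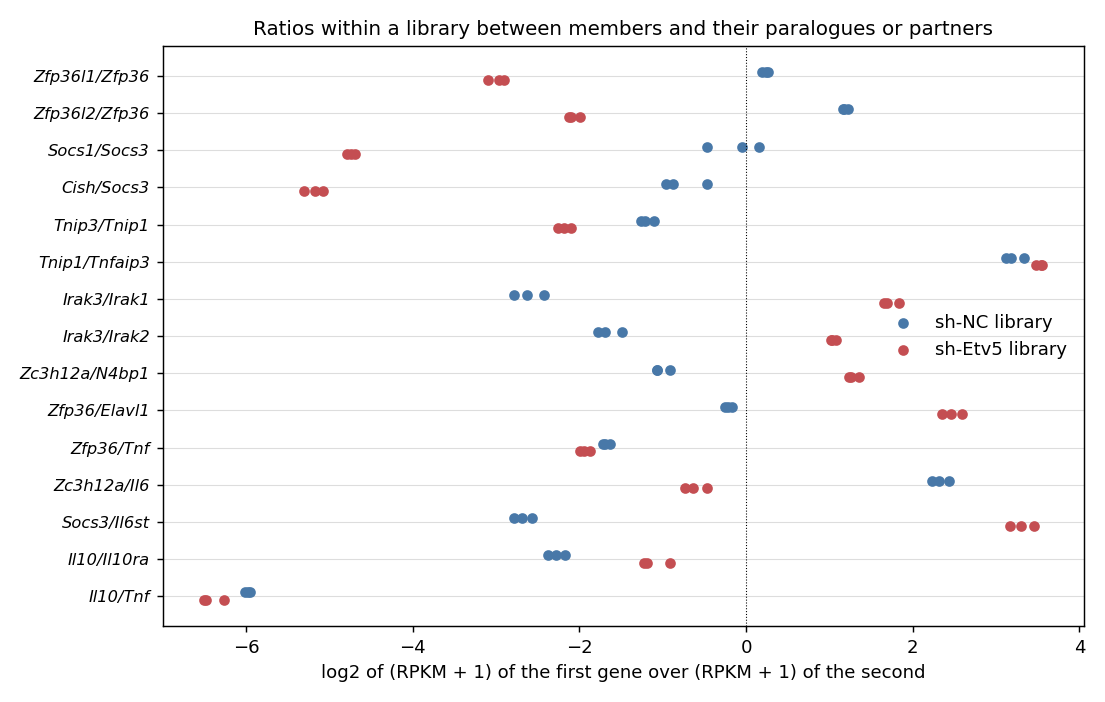
Points are the log2 ratio of (RPKM + 1) between 2 genes in 1 library, for 15 pairs, with sh-NC in blue and sh-*Etv5* in red (3 libraries each). The ratio of *Irak3* to *Irak1* goes from below 0 to above 0, that of *Zfp36l1* to *Zfp36* goes the other way, and that of *Zfp36* to *Tnf* shifts by only -0.26.

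*Tnip1*, which encodes ABIN-1, a partner of the ubiquitin-editing enzyme A20, was 29.5, 26.7 and 27.2 RPKM in sh-NC and 65.5, 64.8 and 60.7 RPKM in sh-*Etv5*. The groups did not overlap, and the log2 fold change was 1.17 (SE 0.0472, limma adjusted p = 2.29e-09). *Tnip3*, which encodes ABIN-3, was 11.7, 11.9 and 11.2 RPKM in sh-NC and 13.6, 12.8 and 13.3 RPKM in sh-*Etv5*. These groups were also separate, but the log2 fold change was only 0.18 (SE 0.0492, limma adjusted p = 0.00642, and 0.00464 to 0.0439 over the alternatives). The log2 ratio of *Tnip3* to *Tnip1* went from -1.19 ± 0.0840 to -2.18 ± 0.0753 (SD, n = 3). *Tnip1* supplied 57.2% of the family's summed RPKM in sh-NC and 70.9% in sh-*Etv5*, and *Tnip3* supplied 23.8% and 14.8%.

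*Tnfaip3*, the gene of A20, was 2.12 ± 0.298 RPKM in sh-NC and 4.65 ± 0.337 RPKM in sh-*Etv5* (SD, n = 3), so *Tnip1* and *Tnfaip3* were 2.29 and 2.19 times their control levels. Their log2 ratio went from 3.21 to 3.52, a shift of 0.31 that shrank to 0.0903 (exact permutation p = 0.4) and 0.0601 (exact permutation p = 0.7) with pseudocounts of 0.1 and 0.01. Of 27 tested further brakes on TLR and NF-κB signalling, 18 were higher, 4 lower and 5 not called, with a median log2 fold change of 0.30, and 4 rose by more than 1. Over all genes tested, 33.3% were higher, 41.0% were lower and 6.23% rose by more than 1. The listed *Il1r2*, *Nlrp12* and *Peli3* were under the filter. *Il1rn*, the IL-1 receptor antagonist (3.51), *Atf3*, a repressor of TLR-induced genes (3.21), and the NF-κB inhibitor *Nfkbib* (1.52) were the highest of the 27.

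*Il10* was listed at 0.000122, 0 and 0.0372 RPKM in control libraries and reached 3.49, 3.70 and 4.37 RPKM in sh-*Etv5*. All controls were near 0 and no sh-*Etv5* library was, but the level reached was low beside that of *Socs3* or *Zfp36* on the same RPKM scale. As *Il10* was tested through its sh-*Etv5* libraries alone, it had to be higher, and its p-value adds no support. The log2 fold change was 2.26 (SE 0.0892, limma adjusted p = 1.93e-09), and no ratio is given because a control library was at 0. For the same reason the log2 fold change of *Il10* depends on the pseudocount and was 5.15 and 7.84 at pseudocounts of 0.1 and 0.01. The gene lies on the plus strand of chromosome 1 (chr1:131019845-131024974, GRCm38) and shares no stretch of 50 bases with another annotated gene.

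*Il10ra*, the ligand-binding receptor chain, was 3.51, 4.20 and 4.06 RPKM in sh-NC and 9.51, 9.71 and 9.09 RPKM in sh-*Etv5*, and its log2 fold change was 1.09 (limma adjusted p = 6.98e-08). The receptor chain was thus present in control libraries in which *Il10* was near 0. The log2 ratio of *Il10* to *Tnf* was -5.98 in sh-NC and -6.41 in sh-*Etv5* at a pseudocount of 1, and the sign of the difference, -0.43, turned to 2.44 and 5.13 at pseudocounts of 0.1 and 0.01, so no direction is given for it. Over all genes tested, 33.3% were higher, 41.0% were lower and 6.23% rose by more than 1. Of 15 tested genes of the IL-10 axis (receptor, regulators and textbook targets), 11 were higher, 3 lower and 1 not called, at a median log2 fold change of 0.87, and 7 rose by more than 1. *Il1rn* (3.51), *Bcl3*, a nuclear IκB protein (3.48), and *Hmox1*, heme oxygenase (2.48), led that list, and *Il1rn* and *Stat3* are also counted in other lists above, as is *Dusp1*.

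**Figure D4:**
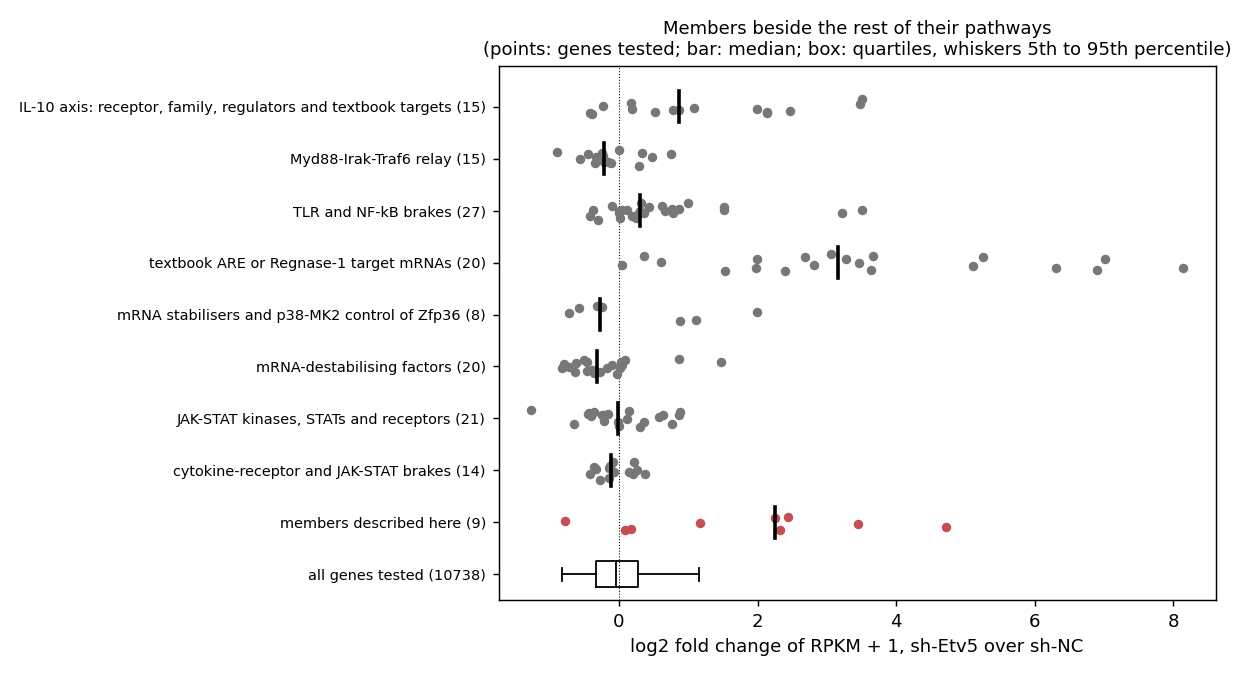
Points are log2 fold changes (sh-*Etv5* over sh-NC, RPKM + 1) of the tested genes of each list, black bars are medians, and the box at the bottom gives the quartiles and the 5th and 95th percentiles of all 10738 genes tested. The 9 tested members spread from -0.78 to 4.72, textbook target mRNAs have a median of 3.17 (6 of the 20 were tested through sh-*Etv5* alone), and JAK-STAT brakes, destabilising factors and the Myd88 relay have medians of -0.11, -0.32 and -0.21.

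The promoters of the members, the 250 bases before the start in RefSeq (GRCm38.p6), were available for 9 of them, all but *Il10*, with 2 starts for *Irak3*. They were read on both strands for 7 motifs of inflammatory transcription factors and ETS proteins. The motifs were AP-1 (TGANTCA), STAT (TTCNNNGAA), C/EBP (TTGCNNAA), CRE (TGACGTCA), ETS (CCGGAAGT), the NF-κB consensus and the interferon-stimulated response element (GAAA, any 2 bases, GAAA). They occur in 6.75%, 7.02%, 9.56%, 1.55%, 2.88%, 3.90% and 2.98% of 32851 promoters. An NF-κB match was found in *Tnip1* and *Tnip3*, a STAT match in *Socs3*, *Zfp36* and *Tnip1*, an AP-1 match in *Zfp36l1* and an interferon-response match in *Socs1*. None of the 7 motifs was found in *Zc3h12a*, *Cish* or *Irak3*, and no C/EBP, CRE or ETS match was found in any of the 9. The 4 sequences shown allow paralogues with different changes to be compared, and capitals mark the matches.
Socs3, chr11:117969367-117969616, minus strand: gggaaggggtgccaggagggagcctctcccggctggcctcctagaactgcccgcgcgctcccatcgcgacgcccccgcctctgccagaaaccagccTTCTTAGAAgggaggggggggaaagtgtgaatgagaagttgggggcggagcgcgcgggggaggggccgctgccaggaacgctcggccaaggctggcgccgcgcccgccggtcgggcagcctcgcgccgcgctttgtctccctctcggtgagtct
Socs1, chr16:10785537-10785786, minus strand: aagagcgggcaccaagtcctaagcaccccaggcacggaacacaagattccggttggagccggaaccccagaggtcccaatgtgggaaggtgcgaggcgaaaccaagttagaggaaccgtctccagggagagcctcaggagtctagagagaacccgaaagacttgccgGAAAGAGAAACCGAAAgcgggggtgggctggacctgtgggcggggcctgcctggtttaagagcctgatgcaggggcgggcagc
Tnip1, chr11:54962941-54963190, minus strand: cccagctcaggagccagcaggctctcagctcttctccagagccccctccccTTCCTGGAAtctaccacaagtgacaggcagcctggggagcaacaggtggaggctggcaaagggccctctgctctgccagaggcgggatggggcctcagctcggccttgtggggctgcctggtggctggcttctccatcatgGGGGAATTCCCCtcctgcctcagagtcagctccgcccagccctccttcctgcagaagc
Tnip3, chr6:65590148-65590397, plus strand: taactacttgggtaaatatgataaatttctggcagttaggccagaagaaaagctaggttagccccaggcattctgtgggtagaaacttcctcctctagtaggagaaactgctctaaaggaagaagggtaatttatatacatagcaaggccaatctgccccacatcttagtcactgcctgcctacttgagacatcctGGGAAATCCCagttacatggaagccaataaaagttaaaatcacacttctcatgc

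In *Socs3*, which rose 40.8-fold, the match is a STAT site 154 bases before the start. In *Socs1*, which was not called, it is a pair of overlapping interferon-response matches 77 and 83 bases before the start. In *Tnip1* 3 overlapping NF-κB matches form a single run 56 to 58 bases before the start, a STAT match lies further away at 199 bases, and in *Tnip3* an NF-κB match lies at 54 bases. *Tnip1* rose 2.29-fold and *Tnip3* 1.14-fold, and both hold an NF-κB match at nearly the same distance. A match is a description of the letters, and binding was not measured here.

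The genes nearest to *Socs3* by their values over the 6 libraries, measured as the Euclidean distance of log2(RPKM + 1) after subtracting the sh-NC mean, were *Procr* (distance 0.17), *Cth* (0.26) and *Edn1* (0.29). As the sh-NC mean is subtracted, this distance picks genes with a similar log2 fold change by construction. The sh-NC means of *Cth* and *Edn1* were below the filter, at 0.891 and 0.0521 RPKM, and their sh-*Etv5* means were 51.6 and 25.1 RPKM. *Procr* went from 1.75 to 68.2 RPKM, almost the levels of *Socs3*. The nearest to *Irak3* were *Il1rn* (0.24), *Bcl3* (0.25) and *Nfkbiz* (0.31). *Nfkbiz*, a nuclear IκB protein and textbook Regnase-1 target, went from 3.46 to 48.1 RPKM, close to the levels of *Irak3*, whereas *Il1rn* had a similar log2 fold change from a higher start (14.7 to 177 RPKM).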

How the data were processed

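Messenger RNA of 3 sh-NC and 3 sh-*Etv5* libraries of Raw264.7 cells was measured with a TruSeq RNA kit. The authors deposited RPKM values, 1 per gene symbol and library, with no read counts, so the depth of each library is unknown. The submitters' processing notes name build mm10, and the aligner, annotation and strand setting are not given in the sources used here. RPKM sums ranged from 320462 to 340257.

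Groups came from the sample labels. The 10738 genes that reached 1 RPKM in 3 or more of the 6 libraries entered a two-sided limma fit (version 3.58.1, R 4.3.3, eBayes with a trend on intensity, no covariate) on log2(RPKM + 1), and p-values were adjusted by Benjamini-Hochberg. The script was tested on simulated data. Family shares and ratios were computed within each library. Coordinates, exon overlaps and untranslated regions came from GENCODE M21 and promoters from RefSeq, read with Python 3.11.15. Genes below 1 RPKM in every sh-NC library enter the test only if they are high in sh-*Etv5*. The members, pathway lists and pairs were chosen with earlier results of these data known, so list counts are descriptions. Named were *Etv5*, the members, the pairs, the 3 largest changes of each list, and the 3 genes nearest to *Socs3* and to *Irak3*. Other genes named were chosen after their values were seen. Alternatives were other pseudocounts, filters and scalings, no trend, a replicate block and each library left out.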

Additional observations from a re-analysis of the deposited data

How the results depend on the processing

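The counts of 7 members higher and 1 lower were the same under every alternative run, except that 6 were higher with a mean RPKM of at least 5, where *Il10* and *Socs1* were not tested. *Socs1* reversed its sign under quantile normalization (-0.043) and over the libraries left out in turn ranged from -0.016, without the second sh-NC library, to 0.19, without being called, and the cause was not tested. The share of genes called was 74.3% and was 30.9% with no filter, where 24786 genes were tested. The 15 ratios kept separate groups in 14 or 15 cases, and the difference for *Il10* over *Tnf* reversed to 2.44 and 5.13 with pseudocounts of 0.1 and 0.01, *Il10* being near 0 in the controls. Deviations of same-numbered libraries correlated at -0.071 to 0.0739, and those of differently numbered libraries at -0.071 to 0.105. No pairing by number was seen, but 3 libraries per group are too few to show that there is none. With the replicate block 73.6% of genes and the same 7 and 1 counts of members were called. The log2 fold changes of *Il10* and *Cish* kept their direction but moved by over 1.5 times with the pseudocount (*Il10* 2.26, 5.15 and 7.84 and *Cish* 0.31, 0.65 and 0.74 at 1, 0.1 and 0.01). *Tnip3* came closest to the threshold when libraries were rescaled to the same sum (limma adjusted p = 0.0439). Without read counts, counting error at low RPKM (*Cish*, *Socs1*, *Il10*) could not be given.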
